A study of Mus musculus with 9 samples.

Results

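The genes described here are 8 imprinted genes, Cdkn1c, Ndn, Meg3, Grb10, Snrpn, Snurf, Impact and Zrsr1, out of the 2402 genes in a table of normalized counts from mouse bone marrow. They were chosen by name, with earlier results of these data known, and all 8 were found. Snrpn and Snurf are read from a shared transcript and count as 1, which leaves 7 transcripts. The study compared megakaryocyte progenitors (MkP, the precursors of the platelet-releasing megakaryocytes) with haematopoietic stem cells (HSC) of male C57BL/6 mice that carry a Flt3-driven Cre and the mTmG reporter, in which cells are red (Tom+) until they or an ancestor made Cre and green (GFP+) afterwards. Of its 9 labelled samples, 3 are GFP+ MkP of young animals (3 months). The old animals gave 2 GFP+ MkP samples, 2 Tom+ MkP samples and 2 Tom+ HSC samples, and their age is given as 18 to 20 months in a label and as 20 months in the breeding protocol. MkP were sorted as Lin-, cKit+, Sca1-, CD150+ and CD41+, and HSC as Lin-, cKit+, Sca1+, CD150+ and Flk2-. The Cre driver limits what the colours tell, since a Tom+ cell is only a cell without a history of Flt3-driven Cre.

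The table has 9 rows without names, and no row was matched to a sample, an age, a colour or a cell type. Each row is therefore called a library and numbered by its place in the table, and no group mean, SD or test between groups is given. The genes are also described among the libraries in which Ly6a, which encodes the Sca1 antigen of the sort, was under 1000 normalized counts. This held for 7 libraries, with 187 as the highest value, while libraries 3 and 4 had 4256 and 5772. This division is by a measured gene, is not a sample group, and Ly6a itself is not a result.

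Imprinted genes are expressed mainly from the allele inherited from 1 parent, because DNA methylation set in the egg or the sperm is kept at control regions through development. Many of them restrain growth. In blood, Cdkn1c is known as a cell cycle brake that keeps stem cells out of division, and a network of imprinted genes, Ndn, Grb10 and Meg3 among them, is known to be active in long-term stem cells and in embryonic tissues. Cdkn1c, Meg3 and, in most tissues, Grb10 are expressed from the maternal allele, and Ndn, Snrpn, Snurf, Impact and Zrsr1 from the paternal allele. The counts do not separate alleles, so imprinting itself was not measured.

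Promoter windows were at hand for 6 of the 8 genes, as 300 bases from 250 before to 50 after a RefSeq transcript start in build GRCm38.p6. The windows below are shown because these genes had their highest values in the same libraries. All read 5′ to 3′ on the gene's strand, in lower case, and capitals mark the hexamer TGCCGC or its reverse complement GCGGCA. The methylated form of this hexamer is the sequence known to be bound by Zfp57, a zinc finger protein that protects imprints. The windows are at chr7:60005150-60005449 (minus strand) for the start that Snrpn and Snurf share, chr7:62348027-62348326 (plus) for Ndn, chr12:109540746-109541045 (plus) for the upstream start of Meg3, chr11:12037371-12037670 (minus) for the upstream start of Grb10 and chr11:22971755-22972054 (plus) for Zrsr1.
Snrpn and Snurf: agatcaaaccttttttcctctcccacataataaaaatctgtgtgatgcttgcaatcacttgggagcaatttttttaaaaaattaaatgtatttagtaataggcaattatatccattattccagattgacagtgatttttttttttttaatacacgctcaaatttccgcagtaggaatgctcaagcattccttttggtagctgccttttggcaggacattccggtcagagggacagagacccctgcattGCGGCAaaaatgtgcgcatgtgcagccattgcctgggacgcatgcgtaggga
Ndn: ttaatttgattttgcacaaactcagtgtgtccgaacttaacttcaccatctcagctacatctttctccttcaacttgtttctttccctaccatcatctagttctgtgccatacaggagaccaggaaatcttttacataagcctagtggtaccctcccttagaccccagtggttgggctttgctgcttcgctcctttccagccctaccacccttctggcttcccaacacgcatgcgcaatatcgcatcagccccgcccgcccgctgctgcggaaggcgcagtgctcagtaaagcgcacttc
Meg3: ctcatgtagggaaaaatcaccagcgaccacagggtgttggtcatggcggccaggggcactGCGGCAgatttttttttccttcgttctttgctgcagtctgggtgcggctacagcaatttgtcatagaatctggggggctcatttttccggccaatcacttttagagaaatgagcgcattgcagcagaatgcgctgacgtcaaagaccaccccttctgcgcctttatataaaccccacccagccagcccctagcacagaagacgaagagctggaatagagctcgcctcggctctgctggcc
Grb10: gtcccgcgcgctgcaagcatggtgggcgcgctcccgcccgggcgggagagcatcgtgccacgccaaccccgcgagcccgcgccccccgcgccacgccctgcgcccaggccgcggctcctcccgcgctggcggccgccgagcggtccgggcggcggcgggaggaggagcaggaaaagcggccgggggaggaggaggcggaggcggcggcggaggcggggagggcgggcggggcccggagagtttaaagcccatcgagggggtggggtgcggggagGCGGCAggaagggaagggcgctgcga
Zrsr1: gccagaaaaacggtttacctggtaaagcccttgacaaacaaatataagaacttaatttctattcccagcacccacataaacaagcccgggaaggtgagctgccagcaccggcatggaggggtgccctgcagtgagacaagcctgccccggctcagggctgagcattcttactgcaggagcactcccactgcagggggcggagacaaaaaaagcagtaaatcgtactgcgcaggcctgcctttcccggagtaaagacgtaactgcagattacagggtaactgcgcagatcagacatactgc
The hexamer occurred once each in the printed windows of Snrpn and Snurf, Meg3 and Grb10, always as GCGGCA, and was not among the letters of the windows of Ndn and Zrsr1. The other 5 windows at hand, 3 of Snrpn and 1 each of Meg3 and Grb10, did not hold it, so it was in 3 of 10 different windows. It was present on either strand in 11.6% of 32817 RefSeq windows of this length, and in 18.3% of the 2285 windows of genes in the table. The windows differed in base composition. Grb10 had 45 CpG dinucleotides and a GC content of 80.0%, Meg3 had 13, Ndn 11, Zrsr1 10 and Snrpn and Snurf 7. The windows not printed had 1 (Meg3), 9 (Grb10) and 2 to 4 (Snrpn), against a median of 20 over the windows of genes in the table.

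Depth, as the reads each library had on the tabulated genes, ran from 1790670 to 4373460, and 3 reads, the limit that a count of 0 allows, stood for 2.17 to 5.89 normalized counts. Of the megakaryocyte markers 9 of 12 were measured, and all 9 had their lowest value in library 3 or 4, against 42.3% of all genes tested. Their summed level was 3264 and 9071 normalized counts there and 80634 to 155725 in the other libraries. Of the 15 stem cell markers other than Ly6a, 8 were measured, and all 8 were highest in library 3 or 4, against 56.2% of all genes tested. Mecom reached 10 normalized counts, the level asked for in 2 or more libraries, only in libraries 3, 4 and 8. Its place in this count is description only. The sums of the 8 were 41321 and 35953 in libraries 3 and 4, 12205 in library 8, 3197 in library 9 and 1615 to 2859 elsewhere. They were mostly Trim47, which gave 23789, 27479 and 9887 in libraries 3, 4 and 8. For Hoxb5, a stem cell transcription factor gene, the values in libraries 1 to 9 were 9.84, 11.8, 400, 223, 3.26, 5.59, 3.07, 195 and 112 normalized counts, with libraries 8 and 9 between libraries 3 and 4 and the rest. Hlf, Ltb, Kit and Tie1 also had libraries 8 and 9 between libraries 3 and 4 and the rest. Hlf had 37.7 and 39.8 normalized counts in libraries 8 and 9 against at most 19.7 in the rest. Ltb had 93.3 and 64.5 against at most 41.2. Kit had 198 and 67.4 against at most 44.8, and Tie1 1676 and 918 against at most 743. Procr, Trim47 and Mecom did not place library 9 apart in this way. Procr had 17.4 normalized counts there, below libraries 1, 2, 6 and 7, Trim47 had 1969 against 2113 in library 1, and Mecom 9.42 against 9.81 in library 2.

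Cdkn1c encodes p57, an inhibitor of cyclin-dependent kinases, and lies on chromosome 7 from 143458339 to 143461050 (minus strand, mm10, GENCODE M21). In libraries 1 to 9 it had 11.5, 43.2, 2934, 1032, 19.6, 19.6, 33.8, 165 and 127 normalized counts. Libraries 3 and 4 were highest, libraries 8 and 9 came next, and libraries 2, 7, 6, 5 and 1 followed. In this last run no neighbour in the order was apart from the next beyond counting error. Its ends were apart, with library 2 at 3.76 times library 1 (interval 1.55 to 10.4). The highest library had 255 times the lowest (95% exact counting interval 124 to 636), or 235 times with 1 added to both values. On that last scale, leaving out library 3 gave 82.8-fold and leaving out library 1 gave 143-fold, while scaling to the table total gave 363-fold and median-of-ratios scaling 153-fold. Among the 7 libraries with low Ly6a, Cdkn1c ranged 14.3-fold from library 1 to library 8 (interval 6.80 to 36.2), or 13.3-fold with 1 added, and 8.05-fold on that scale without library 1. Library 8 was 1.29 times library 9 (interval 1.03 to 1.61), and library 9 was 2.95 times library 2 (interval 1.89 to 4.83).

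Ndn encodes necdin, a MAGE family protein that restrains growth, and lies on chromosome 7 from 62346569 to 62350262 (plus strand) as a single annotated exonic block. Its values in the same order were 57.4, 100.1, 2994, 2546, 33.7, 36.4, 41.5, 804 and 718 normalized counts. Ndn thus fell into clear levels, with libraries 3 and 4 above 8 and 9, then library 2, and then libraries 1, 7, 6 and 5, of which no neighbours were apart beyond counting error. The highest library had 88.9 times the lowest (interval 62.5 to 131), or 86.4 times with 1 added, which was 169 times when scaled to the table total and 57.4 times under median-of-ratios scaling. Among the 7 libraries with low Ly6a the range was 23.9-fold (interval 16.7 to 35.4). Library 9 had 7.17 times the Ndn level of library 2 (interval 5.41 to 9.70). Library 3 exceeded library 4 by 1.18 times (interval 1.11 to 1.25), but this order turned under median-of-ratios scaling, where the ratio was 0.97.

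Grb10 encodes an adaptor that dampens insulin and IGF receptor signalling and lies on chromosome 11 from 11930508 to 12038683 (minus strand). It had 4.92, 9.81, 195, 97.3, 14.1, 8.39, 6.14, 61.9 and 34.0 normalized counts in libraries 1 to 9. The order of the upper libraries was that of Cdkn1c and Ndn, 3, 4, 8 and 9, each apart from the next beyond counting error. Below library 9 the levels rested on 3 to 13 reads and their order was not resolved. The highest library had 39.5 times the lowest (interval 13.3 to 194), or 33.0 times with 1 added and 16.6 times on that scale without library 3. The other scalings gave 56.9 times (table total) and 21.6 times (median-of-ratios). Over the 7 libraries with low Ly6a the ratio was 12.6 (interval 4.10 to 62.7), or 10.6 with 1 added and 5.92 without library 8.

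**Figure D1:**
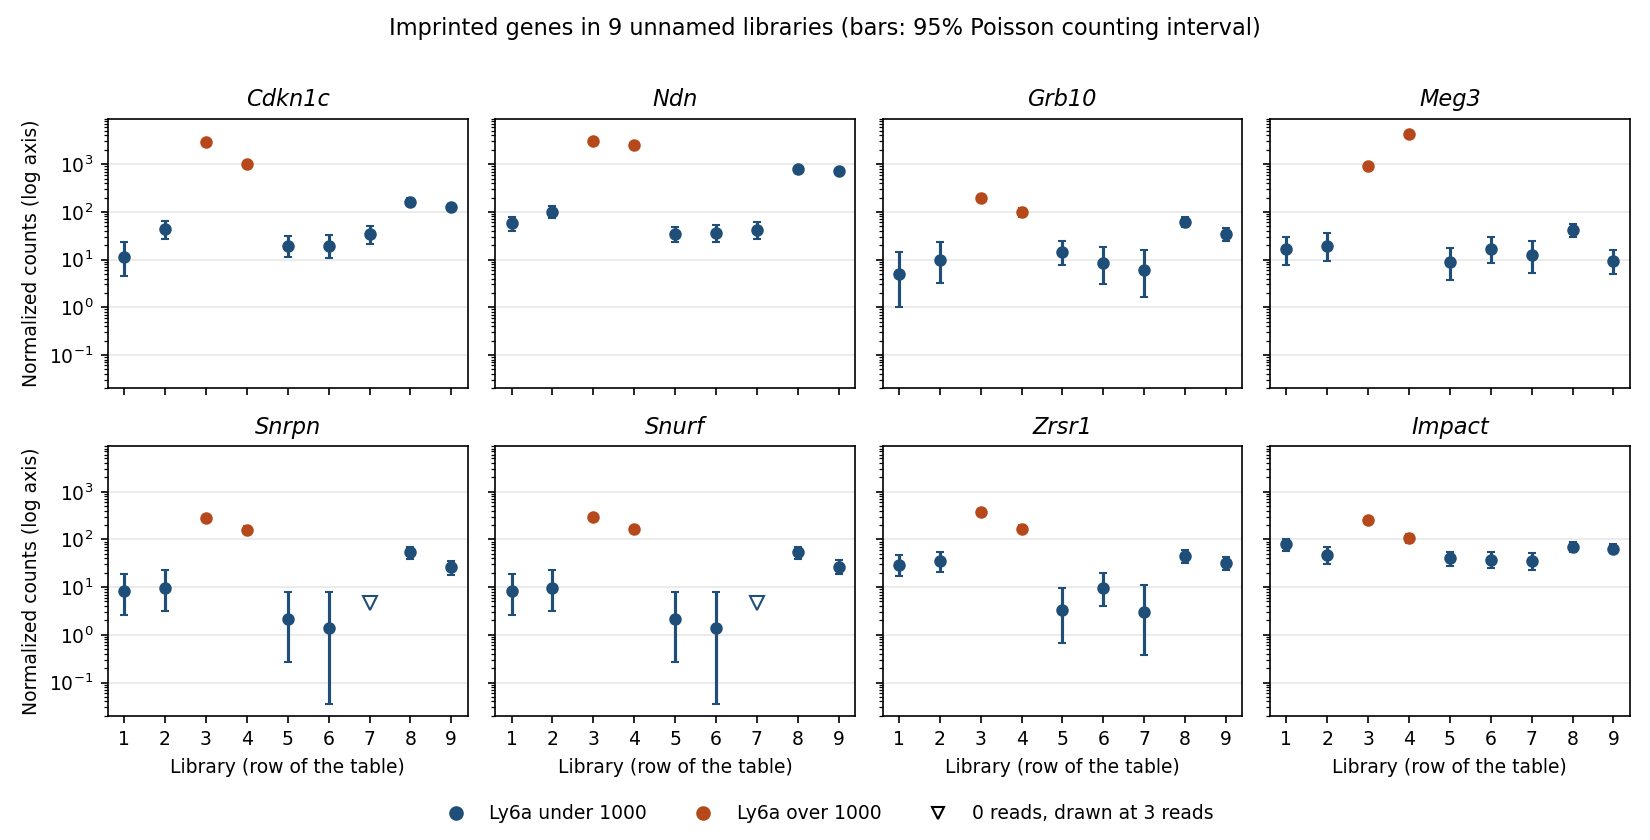
Normalized counts (vertical, log axis) of the 8 imprinted genes in libraries 1 to 9 (horizontal), where points are single libraries, bars are 95% Poisson counting intervals, colour marks Ly6a under or over 1000 and an open triangle is a count of 0 drawn at the level of 3 reads. Libraries 3 and 4 hold the highest values of every gene, libraries 8 and 9 come next for Cdkn1c, Ndn, Grb10, Snrpn and Snurf, and Impact is the flattest, between 35.3 and 261.

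Meg3, a maternally expressed long noncoding RNA of the Dlk1-Dio3 cluster on chromosome 12 (109541001 to 109571726, plus strand), differed from the protein-coding genes in its order. Its values were 16.4, 19.6, 900.0, 4332, 8.69, 16.8, 12.3, 40.9 and 9.42 normalized counts. Library 4 had the highest value, 4.81 times library 3 (interval 4.45 to 5.21), and library 3 had 22.0 times library 8 (interval 16.0 to 31.2). The highest library had 498 times the lowest (interval 253 to 1155), or 447 times with 1 added, 93.0 times on that scale without library 4 and 758 times when scaled to the table total. Among the 7 libraries with low Ly6a the values lay between 8.69 and 40.9, a range of 4.32-fold with 1 added, and this rested on library 8. Without library 8 the range was 2.13-fold, and the reads did not differ between the other 6 beyond counting error (chi-square test, Benjamini-Hochberg adjusted p = 0.344). Library 9, which followed library 8 for Cdkn1c, Ndn, Grb10 and Snrpn, had 9.42 normalized counts of Meg3, below libraries 1, 2, 6 and 7 but not apart from its neighbours in the order beyond counting error. The annotation places the microRNA genes Mir770 and Mir1906-1 inside Meg3, and they were not analysed here.

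Snrpn encodes SmN, a core protein of spliceosomal small nuclear ribonucleoproteins, and Snurf a short protein read from the upstream part of the same transcript. Snrpn spans 59982495 to 60140219 on the minus strand of chromosome 7, and all 216 annotated exonic bases of Snurf are also exonic in Snrpn. Snrpn had 8.20, 9.81, 281, 159, 2.17, 1.40, 0, 53.5 and 26.1 normalized counts. Snurf had the same number of reads as Snrpn in 6 libraries and 8, 4 and 1 more in libraries 3, 4 and 9, where Snrpn had 238, 139 and 36. The 2 columns are therefore nearly the same reads and not separate evidence. Snrpn followed the order 3, 4, 8 and 9 of Cdkn1c, Ndn and Grb10, each step beyond counting error. In libraries 5, 6 and 7 it had 2, 1 and 0 reads. Library 3 was at least 61.0-fold higher than library 7, taking 3 reads as the limit there, and library 8 at least 11.6-fold higher. These bounds leave out the counting error of the higher library, and the exact intervals of the ratios began at 49.2 and 9.10. With 1 added, the range was 282-fold over 9 libraries (117-fold once library 7 was left out, 160-fold once library 3 was) and 54.5-fold over the 7 libraries with low Ly6a (22.7-fold once library 7 was left out, 27.1-fold once library 8 was), and both sizes depend on the value added because library 7 was at 0.

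Zrsr1, a retrogene of Zrsr2 whose product is related to the splicing factor U2AF, is a single exonic block on chromosome 11 from 22972005 to 22976496 (plus strand) inside Commd1, which is on the opposite strand. Of its 4492 exonic bases 412 are also annotated as exonic in Commd1, and reads of Zrsr2 or Commd1 could not be told apart from its own there. Zrsr1 had 29.5, 35.3, 383, 169, 3.26, 9.79, 3.07, 45.1 and 31.9 normalized counts. Libraries 3 and 4 were again highest, and libraries 8, 2, 9 and 1 formed a level in which no neighbours were apart beyond counting error. Library 1 had 3.02 times library 6 (interval 1.20 to 8.54), and libraries 5 and 7 had 3 and 2 reads. Zrsr1 thus placed libraries 1 and 2 beside 8 and 9, whereas Ndn had 717.76 normalized counts in library 9 against 57.4 and 100.1 in libraries 1 and 2. The highest library had 125 times the lowest (interval 34.3 to 1035), or 94.4 times with 1 added and 41.8 times on that scale without library 3. It was 183 times when scaled to the table total and 59.7 times under median-of-ratios scaling. The ratio was 14.7 over the 7 libraries with low Ly6a (interval 3.83 to 125).

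Impact encodes an inhibitor of Gcn2, the kinase that slows translation when amino acids are short, and lies on chromosome 18 from 12955852 to 12992950 (plus strand). Its values were 78.7, 47.1, 261, 105, 40.2, 37.8, 35.3, 69.2 and 64.5 normalized counts. Library 3 stood apart from the next library by 2.48 times (interval 1.93 to 3.19), and below it no neighbours in the order were apart beyond counting error. The highest library had 7.38 times the lowest (interval 4.80 to 11.9), or 7.21 times with 1 added and 2.93 times on that scale without library 3. Scaling moved this to 16.2 times (table total) or 4.44 times (median-of-ratios). Among the 7 libraries with low Ly6a the ratio was 2.23 (interval 1.33 to 3.84), from library 7 to library 1. Impact was the gene of the set with its highest value of these 7 in library 1, an order that turned under scaling to the table total, where library 8 was highest.

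All 8 columns passed the filter on low values, which asked for 10 normalized counts in 2 or more libraries, and entered the tests across the table. The genes were chosen with earlier results of these data known, so their counts beside the shares of all genes are description only. Reads differed over the 9 libraries beyond counting error for 7 of 7 transcripts (chi-square test, largest Benjamini-Hochberg adjusted p = 5.08e-80, for Impact), but so did those of 98.7% of 2341 genes. All 7 had a range of at least 4-fold, against 66.4% of genes, with a median range of 94.4-fold over the transcripts and 6.16-fold over all genes tested. The highest of the 9 values was in library 3 or 4 for 7 of 7, against 56.2% of genes, and in library 3 for 6 of 7, all but Meg3, against 44%. Libraries 3 and 4 were the highest 2 of 9 for 7 of 7, against 51% of genes, and for 7 of 7 also under both other scalings. Among the 7 libraries with low Ly6a, Snrpn reached 10 normalized counts only in libraries 8 and 9. It passed the filter only through the libraries where it is high, and the counts here are over the other 6 transcripts. Of these, Grb10 reached 10 outside libraries 8 and 9 only in library 5, at 14.1, so its pass also depended on them. Counts that include Grb10 are therefore description only. Reads differed for 6 of 6 (largest adjusted p = 0.000499 by the chi-square test, for Impact), against 87.4% of 2133 genes. A range of at least 4-fold was reached by 5 of 6, all but Impact, against 20.8% of genes, and by 4 without library 8, where Meg3 fell to 2.13-fold. The median range was 10.97-fold over these 6 and 2.32-fold over all genes tested. Library 8 was the highest of the 7 for 5 of 6, all but Impact, against 27.5% of genes. The lowest was library 5, 6 or 7 for 4 of 6, all but Cdkn1c and Grb10, against 39.5%. Libraries 8 and 9 were the highest 2 of the 7 for Cdkn1c, Ndn and Grb10, 3 of 6, against 17.8% of genes. Of these 3, Cdkn1c and Ndn reached 10 normalized counts in all 7 libraries, and Grb10 did not.

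**Figure D2:**
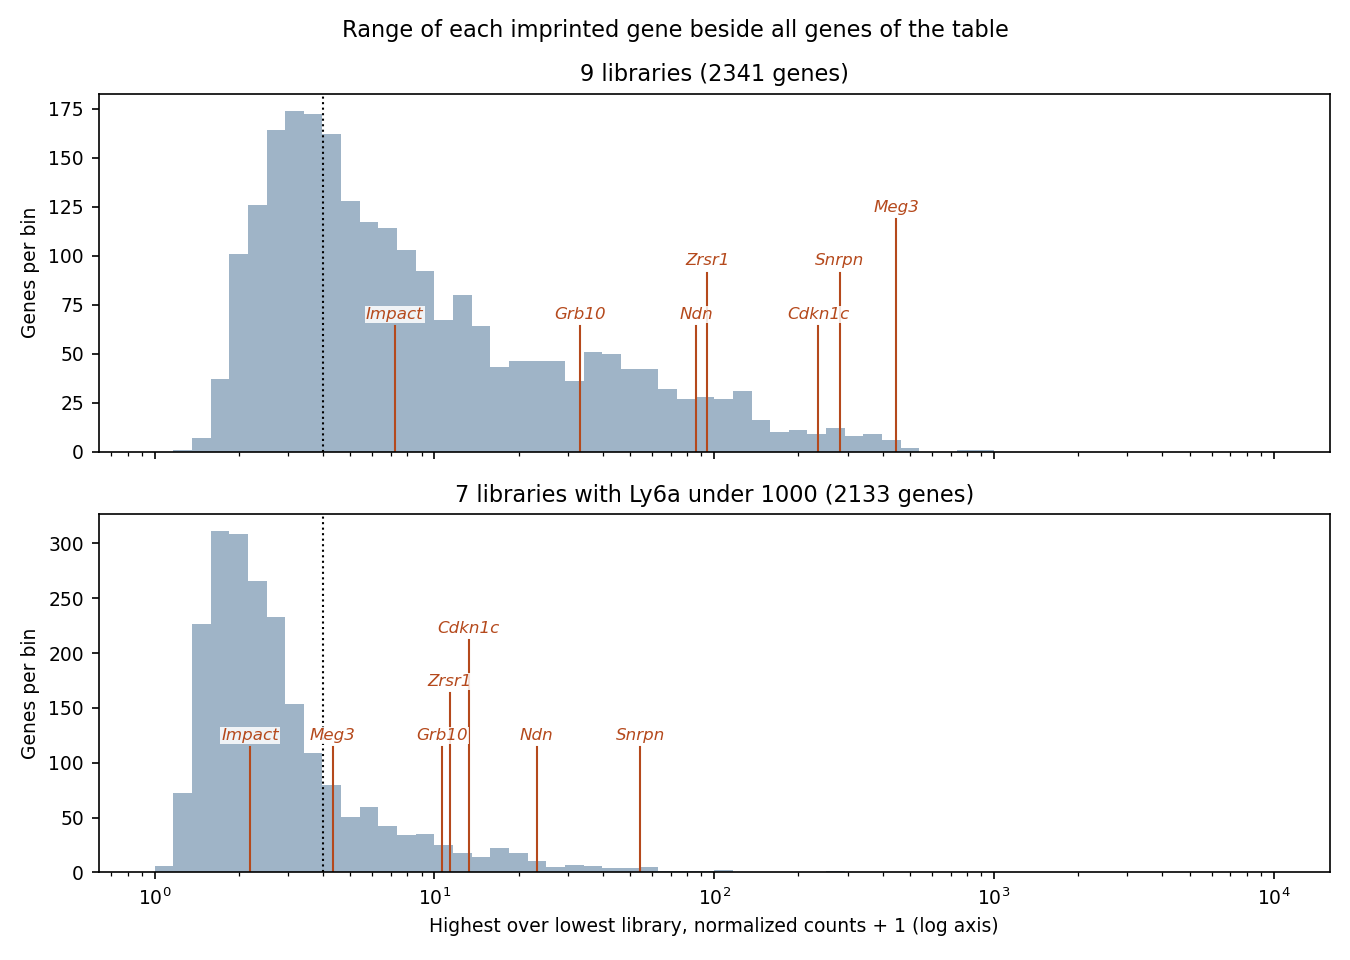
Histograms of each gene's highest library divided by its lowest, with 1 added to each value (horizontal, log axis) over all genes that passed the filter (vertical, genes per bin), for the 9 libraries (top) and for the 7 with Ly6a under 1000 (bottom), where red lines mark the imprinted genes and the dotted line is 4-fold. Impact lies nearest the bulk of the genes in both panels, and Meg3 moves from the widest range of the set, 447-fold, to 4.32-fold once libraries 3 and 4 are left aside.

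The libraries with the highest values were not alike for these genes. Library 3 exceeded library 4 by 2.84 times for Cdkn1c (interval 2.63 to 3.07), 2.48 times for Impact, 2.26 times for Zrsr1 (interval 1.86 to 2.77), 2.00 times for Grb10 (interval 1.53 to 2.63) and 1.77 times for Snrpn (interval 1.43 to 2.19). Meg3 went the other way, and Ndn was nearly level. Under median-of-ratios scaling the Zrsr1 ratio was 1.87, and scaled to the table total the Grb10 ratio was 2.22, so the place of these genes beside a 2-fold limit depends on the scaling. With 1 added to both values, library 3 was at least 2-fold above library 4 for Cdkn1c, Impact and Zrsr1, 3 of 7 transcripts, against 8.8% of genes, and library 4 was at least 2-fold above library 3 for Meg3, 1 of 7, against 8.16%. Itga2b, which encodes the CD41 antigen of the MkP sort, was at 1616 normalized counts in library 3 and 6543 in library 4, and Ly6a was 1.36 times higher in library 4 (interval 1.30 to 1.42). The part of these differences in those of the imprinted genes was not tested. These pairs of libraries were chosen after the values had been seen.

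Libraries 8 and 9 also differed. Library 8 had 4.34 times the Meg3 level of library 9 (interval 2.27 to 8.87), 2.05 times the Snrpn level (interval 1.31 to 3.23) and 1.82 times the Grb10 level (interval 1.22 to 2.72). With 1 added, library 8 was at least 2-fold above library 9 for Meg3 and Snrpn, 2 of 7 transcripts, against 6.66% of genes. For Zrsr1 and Impact the intervals of the ratio, 0.91 to 2.20 and 0.77 to 1.49, included 1. Ly6a had 71.3 normalized counts in library 8 and 187 in library 9. Procr, another stem cell surface gene, had 97.5 in library 8 and 17.4 in library 9, as Meg3 did in direction.

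**Figure D3:**
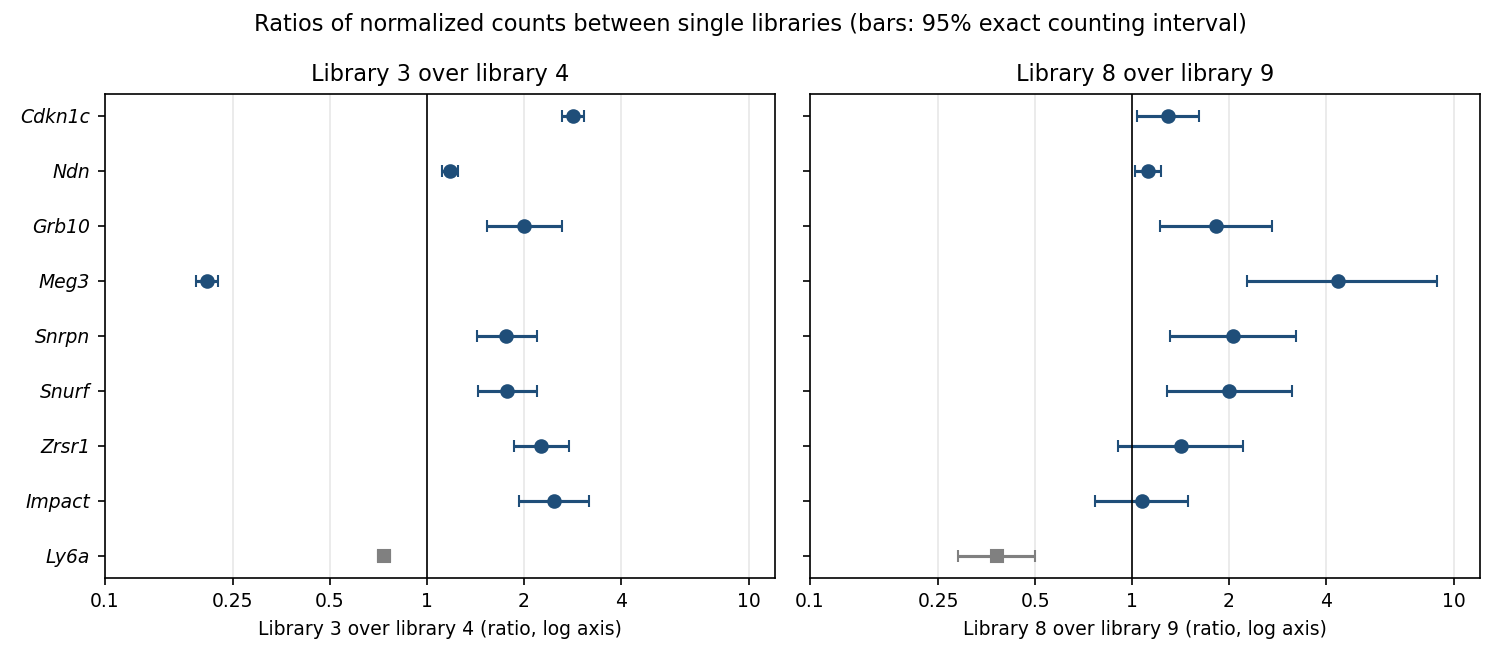
Ratio of normalized counts (horizontal, log axis) of library 3 over library 4 (left) and library 8 over library 9 (right) for each imprinted gene and, in grey, for Ly6a, where bars are 95% exact counting intervals and the vertical line is a ratio of 1. Meg3 is the only imprinted gene below 1 on the left, and it has the highest ratio, 4.34, on the right.

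Levels can be compared between genes only per length, here as normalized counts per 1000 annotated exonic bases, which may include exons these cells do not use. For Ndn the annotated block of 3694 bases begins at 62346569, upstream of its printed RefSeq window at 62348027 to 62348326. A shorter Ndn would have higher levels, so its order against Cdkn1c depends on the annotation, and in library 3 it could turn. With the annotated lengths Cdkn1c was highest of the set in library 3, with 1439 against 810 for Ndn. Ndn was highest in library 4, with 689 against 506 for Cdkn1c. Ndn also exceeded Cdkn1c in library 1 (2.76 times, interval 1.21 to 7.36), library 8 (2.70 times) and library 9 (3.11 times). In libraries 2, 5, 6 and 7, with 14 to 51 reads of each, the levels of Ndn and Cdkn1c were not apart beyond counting error. In library 9 Ndn had 194 per 1000 bases, Cdkn1c 62.5 and Meg3 0.52, the lowest of the set there. Meg3 had place 3 of the 7 transcripts in library 4, with 239, and places 5 to 7 in the others.

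Relatives and partners of these genes were taken from lists of known genes. Of 53 other imprinted genes 3 were measured. Asb4, a gene of the Peg10 cluster, had 20.0 and 49.2 normalized counts in libraries 3 and 4, 1 read in library 8 and 0 in the other 6. Phlda2, which lies in the same imprinted cluster as Cdkn1c, reached 16.5 in library 3, was at most 9.15 elsewhere and did not pass the filter on low values. Tspan32, a tetraspanin gene at the edge of that cluster, was abundant throughout, from 10497 in library 3 to 20304 in library 8, so its lowest value was where Cdkn1c was highest. Maged1, the measured MAGE relative of Ndn, had 144, 62.8, 2596, 1934, 95.6, 53.2, 79.8, 450 and 241 normalized counts, with libraries 3, 4, 8 and 9 highest as for Ndn. Pik3r1, a regulatory subunit of the PI3 kinase below the insulin receptor and the measured gene of the Grb10 pathway list, had 1377 and 344 in libraries 3 and 4 and 51.1 to 208 elsewhere.

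Genes of cell division were lowest where the imprinted genes were highest. Of 15 cyclin, cyclin-dependent kinase and E2F genes 7 were measured. All 7 were lowest in library 3 or 4, as were 42.3% of all genes tested. All 7 passed the chi-square test over the 9 libraries, as did 98.7% of genes. Their median range was 28.9-fold over the 9 libraries and 2.71-fold over the 7 with low Ly6a, against 6.16-fold and 2.32-fold over all genes. Ccnb1, which encodes mitotic cyclin B1, had 3291, 4267, 90.8, 354, 6441, 6224, 7392, 1777 and 3176 normalized counts, and Cdk1, its partner kinase, was between 63.7 in library 3 and 2823 in library 7. Library 8 was the lowest of the 7 libraries with low Ly6a for Ccnb1, where Cdkn1c, Ndn, Grb10, Meg3, Snrpn and Zrsr1 were highest. Ccnb2, Ccna2, Cdk1 and E2f2 were also lowest of the 7 in library 8, but E2f2 was highest in library 9, at 93.4. Cdk2 and Ccnd3 did not follow. Cdk2 had 1671 in library 8 against 1274 in library 2, and Ccnd3 was lowest of the 7 in library 9. Over the 9 libraries Ccnd3 and Cdk2, genes of the G1 phase, ranged 2.71-fold and 2.88-fold. Of 16 inhibitor and pocket protein genes 3 were measured. Txnip, a metabolic and growth restraining arrestin gene, had 29249 and 11983 in libraries 3 and 4 and 421 to 4854 elsewhere, Btg1, an antiproliferative gene, ranged 7.20-fold with 1 added and was highest in library 3, and Cdkn2d, which encodes the inhibitor p19, was lowest there, at 609 against a median of 1360 over the libraries.

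**Figure D4:**
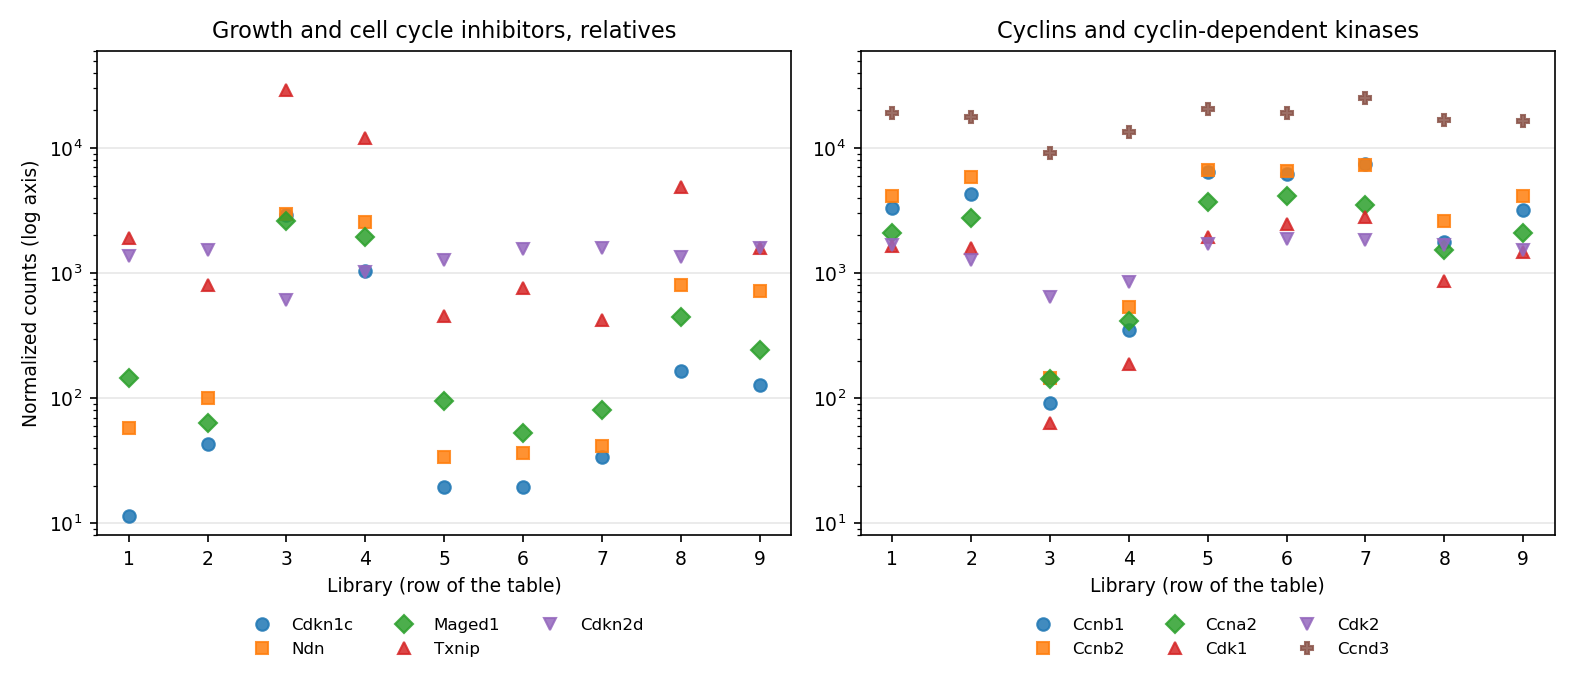
Normalized counts (vertical, log axis) in libraries 1 to 9 (horizontal) of Cdkn1c, Ndn, Maged1, Txnip and Cdkn2d (left) and of measured cyclin and cyclin-dependent kinase genes (right), where each point is 1 library. Cdkn1c and Ndn peak in libraries 3 and 4, where Ccnb1, at 90.8 and 354, is lowest.

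Other partners were described in the same way. The 6 measured Sm, U1, U2 and U2AF protein genes of 18 on that list were all lowest in library 3, where Snrpn and Zrsr1 were highest. The lowest value was in library 3 for 36.6% of all genes tested. Their median range of 4.18-fold was below the 6.16-fold of all genes. Snrpa1, a component of the U2 particle, ranged 10.7-fold from 1019 in library 3 to 10878 in library 7, and U2af1 3.08-fold. Of the Gcn2 pathway of Impact, 3 of 12 genes were measured. Trib3, a stress-induced pseudokinase gene, had 1316 normalized counts in library 3, 366 in library 4 and 4.20 to 39.8 elsewhere, while Asns, asparagine synthetase, and Eif2s1, the target of Gcn2, were lowest in library 3. Of the genes that keep imprints, 3 of 15 were measured. Zfp57 had 3.28, 9.81, 27.1, 19.4, 2.17, 0, 1.54, 8.39 and 5.07 normalized counts, 23 reads at most. Dnmt1, the maintenance DNA methyltransferase, was between 251 in library 3 and 1337 in library 6, and Trim28, the corepressor that Zfp57 recruits, between 351 in library 4 and 1157 in library 5.

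The genes most like each imprinted gene were found by the mean absolute difference of log2 values, with 1 added and each gene centred on its own median, over the 9 libraries. Serpinf1 was nearest to Cdkn1c, with a difference of 0.25 log2 units where the median gene differed by 1.94, followed by Gata3 (0.42) and Fgfr1 (0.44), and the same genes were nearest over the 7 libraries with low Ly6a. Eya2 (0.36), Clec1a (0.36) and Hoxb5 (0.37) were nearest to Ndn. Procr was nearest to Meg3 but at 0.58, and Appl2, Trp53i11 and Fam131a were 0.37 to 0.41 from Grb10. Snurf was 0.01 from Snrpn, and the next genes, Eya2 and Fhdc1, were 0.48 and 0.49 away. Ypel3 (0.33), Id2 and Prtn3 were nearest to Zrsr1, and Taok1 (0.17), Tep1 and Ypel5 to Impact. Between the imprinted genes themselves the smallest difference was 0.71, for Cdkn1c and Ndn, and Ndn and Impact were farthest apart, at 1.78. The profiles of all genes share the same libraries and depths.

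Markers of other cell types moved with these genes in part. Of the endothelial markers 4 of 9 were measured, and all 4 were highest in library 3 or 4, against 56.2% of all genes. Cldn5 and Efna1 reached 10 normalized counts only in libraries 3, 4 and 8, so they passed the filter only through libraries where they are high. This count is description only. The sums of the 4 were 7115 and 6811 normalized counts in libraries 3 and 4, of which Egfl7 gave 4802 and 4029. Elsewhere they were 663 to 1006, mostly Egfl7, and Emcn was at 0 in library 6. Granulocyte and monocyte genes (4 of 8 measured) summed to 12916 and 12329 in libraries 3 and 4 and to 366 to 2142 elsewhere, mostly from Prtn3, while Csf1r was at 0 in library 3 and Cebpa in both. The 4 measured erythroid genes of 10 summed to 290 and 309 in libraries 3 and 4 and to 5788 to 8530 elsewhere, mostly from Aqp1. In library 5 Aqp1 gave 6486 of the 8137. The other erythroid genes were low in libraries 8 and 9 too, where Cdkn1c, Ndn, Grb10 and Snrpn were above the remaining libraries with low Ly6a. Meg3, Zrsr1 and Impact did not set library 9 apart in this way. In libraries 1 to 9, Rhd had 212, 665, 4.72, 9.15, 1187, 744, 768, 3.15 and 98.5 normalized counts. Ermap had 2.36, 5.72, 10.48 and 50.7 in libraries 3, 4, 8 and 9 and 118 to 352 elsewhere, and Add2 had 3.54, 0, 2.10 and 15.9 against 36.1 to 113. Of the 9 stromal markers, of cells that also express Meg3, Grb10 and Ndn, 0 were measured, so these markers could not show such cells. The part of other cells in the levels of the imprinted genes was not tested, and in bulk libraries fewer cells with a transcript and less of it in each cell cannot be told apart.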

How the data were processed

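RNA of sorted bone marrow cells was sequenced, and the authors deposited their normalized counts as a single table of 9 unnamed rows and 2402 genes, a signal divided by a scale factor for each row. The submitters' processing notes name mm10, Bowtie2, STAR and DESeq without roles. How reads were counted, the strand setting, the annotation and why these genes were kept are not stated there. Per the labels' protocols, RNA was taken with Trizol and libraries made with a NEBNext Ultra kit.

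In each row the values are whole multiples of a step (0.724 to 1.96 normalized counts per read). Dividing by it gave whole reads within 0.1 for 100% of values. Genes that reached 10 normalized counts in 2 or more of the libraries used entered a chi-square test of reads against a single rate per library scale, adjusted over all of them by Benjamini-Hochberg at 0.05. It compares libraries, not conditions. Ranges are the highest over the lowest value with 1 added. Ratios have exact conditional binomial intervals at 95%, and these, the Poisson intervals and the floor of 3 reads cover counting error only, since the reads carry no molecular identifiers. Neighbours in an order of levels were called apart where that interval left out 1, without adjustment. No row was matched to a label, so the planned limma tests between groups were not run. The labels do not say which samples share an animal.

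The genes and lists were chosen with earlier results of these data known. Named are the 8 genes, every measured gene of the list of other imprinted genes, members of the other lists by highest median or widest range, and the 3 nearest profiles per gene. Coordinates are from GENCODE M21 and promoter windows from RefSeq (GRCm38.p6). Other overlapping genes, some antisense to Cdkn1c, Ndn and Meg3, could share reads. On data simulated for 2341 genes all reads (100%) were recovered, the test called 68% and 82% of genes raised 1.5- and 2-fold in a single library, 100% of those raised 4- or 8-fold, and 0.607% of unchanged genes. Python 3.11.15, pandas 2.3.3 and scipy 1.17.1 were used. Alternatives were other scalings, pseudocounts, filters, Ly6a limits and leaving out each library.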

Additional observations from a re-analysis of the deposited data

How the results depend on the processing

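No paired analysis was possible because the rows carry no sample names or replicate numbers. The numbers of transcripts whose reads differed or whose range reached 4-fold are given here with Snrpn included. They differed by at most 1.5 times from the main values under every alternative run. These were other scalings, pseudocounts, no filter, Ly6a limits of 500 and 2000, and each library left out. Over the 7 libraries with low Ly6a the numbers went from 7 to 5 (reads) and from 6 to 4 (range) without library 8. Without library 9 they were 6 and 5. Snrpn no longer passed the filter on low values in either case. The median range of 94.4-fold over 9 libraries was 183-fold when scaled to the table total, 59.7-fold under median-of-ratios scaling, 57.1-fold with a pseudocount of 5 and 11.3-fold without libraries 3 and 4, a setting added after the data had been seen. Over all genes it was then 7.61-, 6.57-, 5.16- and 2.32-fold. Over the 7 libraries the median range, 11.3-fold with Snrpn included, was 6.74-fold with a pseudocount of 5. Leaving out each library in turn gave 73.4- to 94.4-fold over 9 libraries and 8.80- to 11.3-fold over the 7. Of 216 ranges of single genes recomputed, 164 stayed within 1.5 times. Relative to the deposited scale, every gene of library 3 shifted by 0.64 (log2) when scaled to the table total and by -0.52 under median-of-ratios scaling. At this depth, values of Snrpn, Zrsr1 and Grb10 under 15 normalized counts rest on few reads and their order cannot be read. The same holds for Meg3 outside libraries 3, 4 and 8, with 8 to 13 reads. The Cdkn1c value in library 1, the lowest in both its ranges, rests on 7 reads.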

Other observations

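The values of the imprinted genes fell into levels over the 9 unnamed libraries. The gap below libraries 3 and 4, as the second highest value over the third highest, was 22.0-fold for Meg3 (900.0 in library 3 and 40.9 in library 8), 6.27-fold for Cdkn1c (1032 in library 4 and 165 in library 8), 3.76-fold for Zrsr1, 3.17-fold for Ndn and 2.97-fold for Snrpn. It was 1.57-fold for Grb10 (interval 1.11 to 2.23) and 1.34-fold for Impact, whose interval of 0.93 to 1.94 included 1. A second gap lay below libraries 8 and 9 for Ndn (7.17-fold), Cdkn1c (2.95-fold), Snrpn (2.66-fold) and Grb10 (2.41-fold). Meg3 had one below library 8 (2.08-fold, interval 1.02 to 4.68). Zrsr1 had its second gap elsewhere, between libraries 1 and 6 (3.02-fold). Impact had none beyond counting error.

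Of all reads in the table, the 7 transcripts took 6737 of 1790670 in library 3 and 7377 of 2050047 in library 4. They took 1182 of 2749320 in library 8 and 1396 of 4373460 in library 9, and 86 to 135 in libraries 1, 2, 5, 6 and 7. Depth differed, so these numbers of reads do not order the libraries. In library 4, 3786 of the 7377 reads were Meg3, and on the deposited scale the other transcripts were lower there than in library 3.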
